A study of Mus musculus with 7 samples.

Results

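The amino acid transporters described here were the 61 genes, of 29267 in each deposited table, whose symbol belongs to the Slc1, Slc3, Slc6, Slc7, Slc36, Slc38 or Slc43 family. They were chosen by name and not by any measured value, and all were annotated as protein-coding. Of them 19 were Slc6, 15 Slc7, 11 Slc38, 7 Slc1, 4 Slc36, 3 Slc43 and 2 Slc3 genes. A TPM (a transcript level per unit of length, scaled to the same total in every library) of at least 1 was reached in at least 1 library by 43 of the 61, and a TPM of at least 5 by 34. In all 7 libraries 25 genes had a TPM of at least 1 and 17 a TPM of at least 5.

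Cells take up most amino acids through carriers of overlapping range, and several carriers exchange one amino acid for another. The light chains of the Slc7 family form a heterodimer with a heavy chain of the Slc3 family, which brings them to the cell surface, and Slc38 carriers of system A bring in glutamine and alanine together with sodium. Mouse embryonic stem cells in the naive state depend on the breakdown of threonine by the enzyme Tdh, and a shortage of amino acids acts through the kinase GCN2 and the transcription factor ATF4 on carriers and enzymes of amino acid synthesis.

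RNA-Seq was performed on mouse cells, with 1 library in each of 7 groups and so without replicates. OG2 mouse embryonic fibroblasts (MEFs), which carry egfp under the Oct4 promoter (GOF18ΔPE), received Oct4, Sox2, Klf4 and c-Myc by retrovirus and were kept in mES medium (serum) or in 5C medium (serum-free, with N2 and bFGF), both with LIF and vitamin C. FACS on day 15 separated GFP-positive from GFP-negative cells, which gave mES-Oct4GFP+ and mES-Oct4GFP- from the one medium and 5C-Oct4GFP+ and 5C-Oct4GFP- from the other, all at passage 0. 5C-Oct4GFP+ cells were then carried into naive medium (LIF with the inhibitors CHIR99021 and PD0325901) or primed medium (bFGF and activin A), which gave 5C-Oct4GFP+ (naive) and 5C-Oct4GFP+ (primed) (called naive and primed culture below), and primed cells from the embryonic stem cell line R1 gave R1 ESCs-primed, all 3 labelled as passage 20. A figure legend of the study describes 3 days in naive or primed medium, then 20 further passages, for the cells used for RNA-Seq, which matches the labels. Another legend gives 3 days only for these groups, so the length of culture is not fully certain. R1 cells were brought into the primed state on MEF feeder cells with bFGF and activin A, and for maintenance CHIR99021 and IWR-1 took the place of these factors. Whether 5C-Oct4GFP+ (primed) cells had feeders or the maintenance medium is not given in the sources used here. The mES, naive and primed media list added non-essential amino acids and GlutaMax, a stable glutamine source, and the 5C medium, with DMEM/F12 as its base, does not. These are supplements only, and the amino acids already present in the base media were not compared here. Passage was the same among the day-15 libraries and among the other 3, and the sorted fractions of 1 culture shared their medium. Medium, passage and cell state differed together between 5C-Oct4GFP+ cells and the cultures made from them. Wherever such factors differed together, their parts in a difference cannot be told apart. In bulk RNA, fewer cells of a type and less RNA per cell cannot be told apart either.

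The estimated counts of a library summed to between 6108252 and 11496615, and 1 read on the median transporter was worth between 0.0542 and 0.1 TPM. Summed TPM of 4 naive markers (Zfp42, Esrrb, Klf2, Tfcp2l1) was 731.7 or above in 5C-Oct4GFP+, mES-Oct4GFP+ and 5C-Oct4GFP+ (naive) and 64.82 or below in the other 4 libraries, with Zfp42 at 0 reads in 5C-Oct4GFP+ (primed). Summed TPM of 4 primed markers (Fgf5, T, Otx2, Foxa2) was 627.4 and 753.6 in 5C-Oct4GFP+ (primed) and R1 ESCs-primed. It was 201.6 in 5C-Oct4GFP+, where Otx2 alone held 189 TPM. The mES-Oct4GFP- library stood apart from its label, since its Pou5f1 (Oct4) level of 3640 TPM was the highest of all while its Nanog level of 17.1 TPM was the lowest. Its Lin28a level of 75.92 TPM was also above the 24.24 TPM of mES-Oct4GFP+, whereas its Sall4 level was below it (34.8 against 170.86 TPM). Summed TPM of these 4 pluripotency markers was 3768 in mES-Oct4GFP- and 2213 in mES-Oct4GFP+. The 5C-Oct4GFP- library also held Pou5f1, at 1534 TPM beside 1321 in mES-Oct4GFP+ and 1503 in R1 ESCs-primed. Its Nanog level was 119.5 TPM, beside 118.45 in 5C-Oct4GFP+ (primed) and 252.9 in 5C-Oct4GFP+. Whether retroviral Oct4 reads were counted as Pou5f1 was not tested. Fibroblast markers (Col1a1, Col1a2, Thy1, Pdgfrb, Postn) summed to 342.6 TPM in mES-Oct4GFP- and 167.1 in 5C-Oct4GFP- against 11.06 and 7.76 in the corresponding Oct4GFP+ libraries.

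The plot of levels shows 34 transporters, which are 33 that reached 5 TPM and Slc3a1. Of all 34 that reached 5 TPM, 8 were highest in 5C-Oct4GFP-, 6 each in 5C-Oct4GFP+ (primed), 5C-Oct4GFP+ and mES-Oct4GFP+, 4 in mES-Oct4GFP-, and 2 each after naive culture and in R1 ESCs-primed. The highest library was not counted over all genes, so whether this spread is particular to transporters is not known. All 61 together held between 0.149% and 0.225% of the TPM of a library. Slc38a6, an orphan carrier, was listed with the highest TPM of any member in 5 of the 7 libraries, with 703 TPM in mES-Oct4GFP+ beside 319 in mES-Oct4GFP-, 356 TPM in 5C-Oct4GFP+ beside 556 in 5C-Oct4GFP-, 359 after naive culture, 209 after primed culture and 106 in R1 ESCs-primed. Its level is uncertain: the effective length in the files, 3733 to 3832 bases, fits the transcript ENSMUST00000153941 of 3927 bases, of whose 31-base words 78.0% also occur in transcripts of 127 other genes. Without Slc38a6 the members summed to between 1130 and 1835 TPM, with 5C-Oct4GFP+ the highest and 5C-Oct4GFP+ (naive) the lowest.

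**Figure D1:**
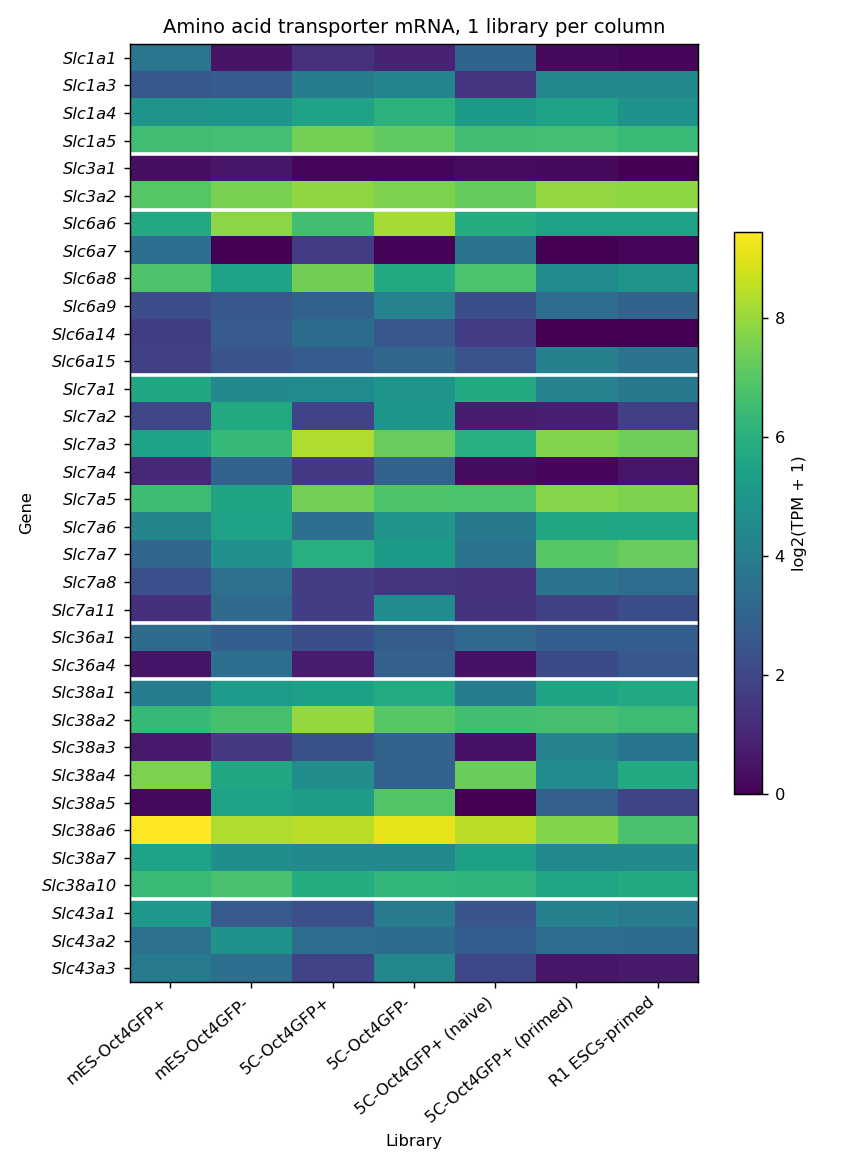
Level of 34 amino acid transporters (rows, grouped by family with white lines between families) in 7 libraries (columns, 1 library each), as log2(TPM + 1) in colour. Slc3a2, Slc1a5, Slc38a2 and Slc7a5 were high in every library, whereas Slc38a5, Slc6a7, Slc1a1 and Slc7a2 were close to 0 in some libraries and clearly detected in others.

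The heavy chain Slc3a2 (4F2hc or CD98, chr19:8706882-8723369 on the minus strand of GRCm38) had 123 TPM in mES-Oct4GFP+ beside 187 in mES-Oct4GFP-, 234 TPM in 5C-Oct4GFP+ beside 199 in 5C-Oct4GFP-, 147 after naive culture, 245 after primed culture and 232 in R1 ESCs-primed. It was lowest in mES-Oct4GFP+ and 5C-Oct4GFP+ (naive) and stayed within 2-fold in all 8 comparisons. The levels in 5C-Oct4GFP+ (primed), 5C-Oct4GFP+ and R1 ESCs-primed were close, with ratios of 1.05 (95% counting interval 1.0 to 1.1) between the first pair and 1.06 (1.0 to 1.12) between 5C-Oct4GFP+ (primed) and R1 ESCs-primed. All such intervals given here are exact Clopper-Pearson 95% intervals of the ratio of TPM and cover counting error only, not the spread between cultures. The other heavy chain, Slc3a1 (rBAT), was at or below 0.47 TPM everywhere, and its light chains Slc7a9 and Slc7a13 together reached 4.15 TPM only in mES-Oct4GFP+.

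Slc7a5 (LAT1, chr8:121881150-121907694, minus strand), the exchanger of leucine and other large neutral amino acids, had 90.9 TPM in mES-Oct4GFP+ beside 44.8 in mES-Oct4GFP-, 173 TPM in 5C-Oct4GFP+ beside 114 in 5C-Oct4GFP-, 109 after naive culture, 213 after primed culture and 199 in R1 ESCs-primed. It was the most abundant light chain in every library, narrowly so in mES-Oct4GFP-. Slc7a7 (y+LAT1, chr14:54369442-54417780, minus strand), an exchanger of cationic against neutral amino acids, had 7.70 TPM in mES-Oct4GFP+ beside 26.3 in mES-Oct4GFP-, 59.98 TPM in 5C-Oct4GFP+ beside 34.2 in 5C-Oct4GFP-, 11.1 after naive culture, 126 after primed culture and 153 in R1 ESCs-primed. Thus both primed libraries lay above the other 5, and mES-Oct4GFP+ and 5C-Oct4GFP+ (naive) lay below them. Its annotation overlaps Oxa1l on the other strand, and the strand setting of the counting is not given in the sources used here.

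The related exchanger Slc7a6 (y+LAT2) had 18.6 TPM in mES-Oct4GFP+ beside 42.3 in mES-Oct4GFP-, 10.01 TPM in 5C-Oct4GFP+ beside 29.9 in 5C-Oct4GFP-, 13.03 after naive culture, 49.2 after primed culture and 47.3 in R1 ESCs-primed. It was high in the primed and Oct4GFP- libraries and low in the 3 libraries with high naive markers. Slc7a8 (LAT2), a further neutral amino acid exchanger, had 3.94 TPM in mES-Oct4GFP+ beside 10.6 in mES-Oct4GFP-, 2.26 TPM in 5C-Oct4GFP+ beside 1.72 in 5C-Oct4GFP-, 1.55 after naive culture, 11.6 after primed culture and 9.32 in R1 ESCs-primed. Slc7a11 (xCT, chr3:49892526-50443614, minus strand), which takes up cystine in exchange for glutamate and so feeds glutathione synthesis, had 1.42 TPM in mES-Oct4GFP+ beside 8.72 in mES-Oct4GFP-, 2.31 TPM in 5C-Oct4GFP+ beside 23.2 in 5C-Oct4GFP-, 1.64 after naive culture, 2.68 after primed culture and 3.84 in R1 ESCs-primed. Both Oct4GFP- libraries thereby held the highest Slc7a11 levels. The mean effective length of its transcripts varied between 3233 and 8521 bases among libraries, so its TPM depends on which transcripts RSEM assigned the reads to. The last CD98 light chain, Slc7a10 (Asc-1), did not exceed 1.67 TPM.

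The 6 light chains together reached 124.2 TPM in mES-Oct4GFP+ beside 134.3 in mES-Oct4GFP-, 248.0 TPM in 5C-Oct4GFP+ beside 203.0 in 5C-Oct4GFP-, 136.7 after naive culture, 402.3 after primed culture and 412.9 in R1 ESCs-primed. The sum was close to the Slc3a2 level in 4 libraries, with ratios between 0.929 and 1.06. It was 0.719 times that level in mES-Oct4GFP- and 1.64 and 1.78 times in 5C-Oct4GFP+ (primed) and R1 ESCs-primed. The make-up of the sum differed too. Slc7a5 held between 69.9% and 80.0% of it in 5C-Oct4GFP+, mES-Oct4GFP+ and 5C-Oct4GFP+ (naive), 53.0% and 48.1% in 5C-Oct4GFP+ (primed) and R1 ESCs-primed, 56.0% in 5C-Oct4GFP- and 33.3% in mES-Oct4GFP-. Slc7a7 held 31.2% and 37.1% of it in the primed libraries and 24.2% in 5C-Oct4GFP+, then 19.6% (mES medium) and 16.9% (5C medium) in the Oct4GFP- libraries, and 8.1% after naive culture and 6.2% in mES-Oct4GFP+. Slc7a11 held 11.4% in 5C-Oct4GFP-, 6.5% in mES-Oct4GFP- and at most 1.2% elsewhere. These are shares of mRNA per length, and protein was not analysed here.

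**Figure D2:**
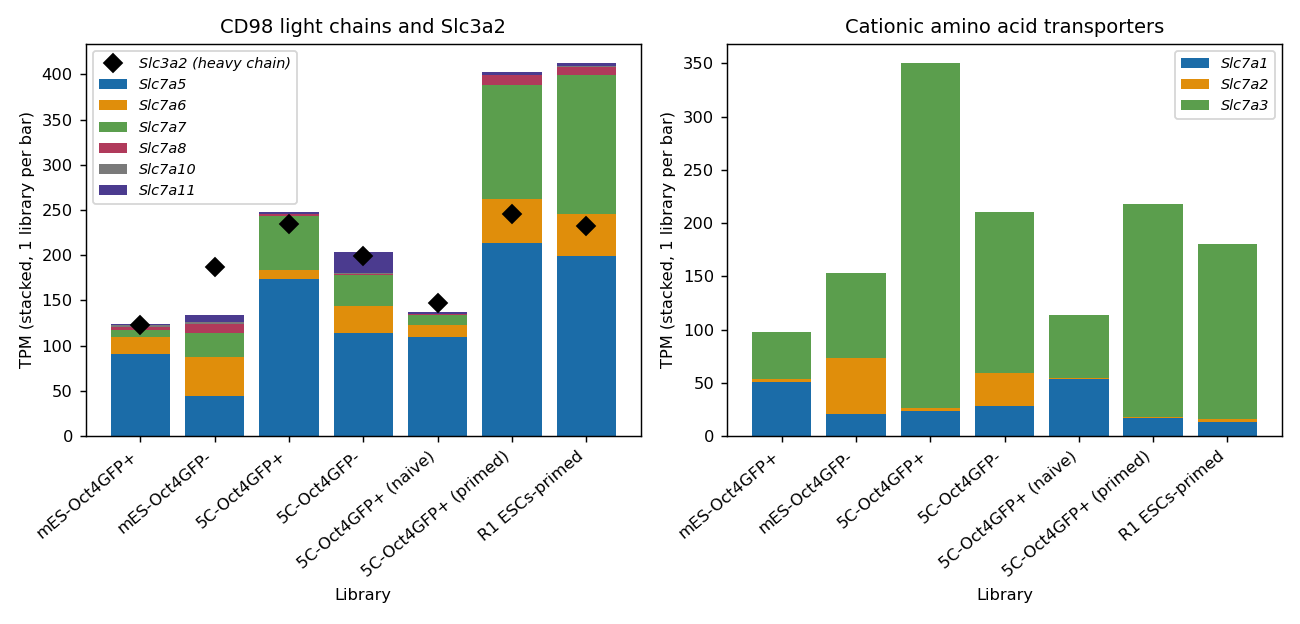
Left, TPM of the 6 light chains of CD98 stacked in 1 bar per library, with the heavy chain Slc3a2 as a black diamond; right, TPM of the cationic transporters Slc7a1, Slc7a2 and Slc7a3, stacked in the same way. The light-chain bars stand well above the diamond in the 2 primed libraries (402.3 and 412.9 TPM), and Slc7a1 forms about as much of the bar as Slc7a3 in mES-Oct4GFP+ and 5C-Oct4GFP+ (naive) alone.

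Among the carriers of arginine and lysine that need no heavy chain, Slc7a3 (CAT3, chrX:101079210-101086020, minus strand) had 43.9 TPM in mES-Oct4GFP+ beside 79.98 in mES-Oct4GFP-, 325 TPM in 5C-Oct4GFP+ beside 151 in 5C-Oct4GFP-, 59.4 after naive culture, 199.9 after primed culture and 164 in R1 ESCs-primed. Slc7a1 (CAT1) had 50.5 TPM in mES-Oct4GFP+ beside 20.6 in mES-Oct4GFP-, 23.3 TPM in 5C-Oct4GFP+ beside 28.5 in 5C-Oct4GFP-, 53.9 after naive culture, 17.3 after primed culture and 13.2 in R1 ESCs-primed. Slc7a1 was highest in 5C-Oct4GFP+ (naive) and mES-Oct4GFP+, the libraries in which Slc7a3 was lowest, whereas among the other 5 libraries their levels did not run opposite throughout. Of the sum of both, Slc7a3 held 46.5% in mES-Oct4GFP+ and 52.4% in 5C-Oct4GFP+ (naive) and between 79.5% and 93.3% in the other 5 libraries. Slc7a2 (CAT2) had 3.05 TPM in mES-Oct4GFP+ beside 52.8 in mES-Oct4GFP-, 2.76 TPM in 5C-Oct4GFP+ beside 30.98 in 5C-Oct4GFP-, 0.69 after naive culture, 0.80 after primed culture and 2.42 in R1 ESCs-primed, so that it was at 30.98 TPM or more in the Oct4GFP- libraries and at 3.05 TPM or less in the others. Slc7a4, a relative without established transport, was also highest in those libraries, at 6.96 TPM in mES-Oct4GFP- and 7.01 in 5C-Oct4GFP-, and at 2.02 TPM or less elsewhere.

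Of the system A carriers, Slc38a2 (SNAT2), which is known to be induced when amino acids are short, had 79.5 TPM in mES-Oct4GFP+ beside 104 in mES-Oct4GFP-, 250.2 TPM in 5C-Oct4GFP+ beside 127 in 5C-Oct4GFP-, 95.9 after naive culture, 101 after primed culture and 89.6 in R1 ESCs-primed. The 5C-Oct4GFP+ library stood above the other 6, which lay between 79.5 and 127 TPM. Slc38a1 (SNAT1) had 15.2 TPM in mES-Oct4GFP+ beside 36.8 in mES-Oct4GFP-, 40.9 TPM in 5C-Oct4GFP+ beside 55.1 in 5C-Oct4GFP-, 15.2 after naive culture, 45.5 after primed culture and 50.8 in R1 ESCs-primed, with mES-Oct4GFP+ and 5C-Oct4GFP+ (naive) lowest. Slc38a4 (SNAT4), a carrier of liver and placenta, had 194 TPM in mES-Oct4GFP+ beside 49.4 in mES-Oct4GFP-, 24.2 TPM in 5C-Oct4GFP+ beside 6.74 in 5C-Oct4GFP-, 155 after naive culture, 22.8 after primed culture and 54.1 in R1 ESCs-primed. Its order was thus the reverse of that of Slc38a1 at the top, with mES-Oct4GFP+ and 5C-Oct4GFP+ (naive) highest. Summed over these 3 genes, system A mRNA ranged from 168.9 TPM in 5C-Oct4GFP+ (primed) to 315.3 TPM in 5C-Oct4GFP+. Slc38a4 provided 194 of 289.1 TPM in mES-Oct4GFP+, and Slc38a2 provided 250.2 of 315.3 TPM in 5C-Oct4GFP+.

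The system N carriers couple the passage of glutamine to sodium and protons. Slc38a5 (SNAT5, chrX:8271133-8280179, plus strand) had 0.17 TPM in mES-Oct4GFP+ beside 43.4 in mES-Oct4GFP-, 37.9 TPM in 5C-Oct4GFP+ beside 119 in 5C-Oct4GFP-, 0 after naive culture, 6.44 after primed culture and 2.92 in R1 ESCs-primed. It rested on 1 read in mES-Oct4GFP+ and none in 5C-Oct4GFP+ (naive), against 920 reads in 5C-Oct4GFP-, 388 in 5C-Oct4GFP+ and 344 in mES-Oct4GFP-. Slc38a3 (SNAT3) had 0.55 TPM in mES-Oct4GFP+ beside 2.0 in mES-Oct4GFP-, 4.06 TPM in 5C-Oct4GFP+ beside 7.05 in 5C-Oct4GFP-, 0.36 after naive culture, 17.4 after primed culture and 11.7 in R1 ESCs-primed, and was likewise lowest in mES-Oct4GFP+ and 5C-Oct4GFP+ (naive). Slc38a7, a lysosomal glutamine carrier, lay between 20.3 and 43.5 TPM, and Slc38a10 between 47.3 and 108 TPM. Slc38a9, the lysosomal arginine sensor, did not exceed 4.34 TPM.

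In the Slc1 family, Slc1a5 (ASCT2, an exchanger of glutamine and other neutral amino acids) had 94.2 TPM in mES-Oct4GFP+ beside 99.4 in mES-Oct4GFP-, 176 TPM in 5C-Oct4GFP+ beside 140.4 in 5C-Oct4GFP-, 92.2 after naive culture, 97.3 after primed culture and 85.2 in R1 ESCs-primed. It was highest in both 5C libraries of day 15, and stayed within 2-fold in all 8 comparisons. Slc1a4 (ASCT1, an exchanger of serine, alanine, cysteine and threonine) lay between 27.2 and 65.9 TPM, the latter in 5C-Oct4GFP-. Slc1a3 (GLAST), which takes up glutamate and aspartate, had 5.06 TPM in mES-Oct4GFP+ beside 5.66 in mES-Oct4GFP-, 15.3 TPM in 5C-Oct4GFP+ beside 18.1 in 5C-Oct4GFP-, 1.71 after naive culture, 20.1 after primed culture and 21.2 in R1 ESCs-primed. The glutamate and cysteine carrier Slc1a1 (EAAC1) had 12.3 TPM in mES-Oct4GFP+ beside 0.43 in mES-Oct4GFP-, 1.52 TPM in 5C-Oct4GFP+ beside 0.87 in 5C-Oct4GFP-, 7.26 after naive culture, 0.18 after primed culture and 0.12 in R1 ESCs-primed, with mES-Oct4GFP+ and 5C-Oct4GFP+ (naive) above the rest. Between 31.2% and 97.9% of the 31-base words of 4 Slc1a1 transcripts in the files also occur in transcripts of 4430402I18Rik and other genes, so reads could have been split between them.

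The Slc6 family holds carriers of taurine, creatine, glycine, proline and neurotransmitters. Slc6a6 (TauT), the taurine carrier, had 51.04 TPM in mES-Oct4GFP+ beside 226 in mES-Oct4GFP-, 95.4 TPM in 5C-Oct4GFP+ beside 287 in 5C-Oct4GFP-, 56.7 after naive culture, 44.2 after primed culture and 43.96 in R1 ESCs-primed. Slc6a8, the creatine carrier, had 112 TPM in mES-Oct4GFP+ beside 42.96 in mES-Oct4GFP-, 169 TPM in 5C-Oct4GFP+ beside 53.8 in 5C-Oct4GFP-, 108 after naive culture, 23.3 after primed culture and 28.7 in R1 ESCs-primed. The order of the sorted libraries was opposite for these genes: Slc6a6 was highest in both Oct4GFP- libraries, whereas Slc6a8 was high in mES-Oct4GFP+, 5C-Oct4GFP+ and 5C-Oct4GFP+ (naive). Slc6a7, the proline carrier first known from brain, had 10.01 TPM in mES-Oct4GFP+ beside 0 in mES-Oct4GFP-, 2.20 TPM in 5C-Oct4GFP+ beside 0.07 in 5C-Oct4GFP-, 11.3 after naive culture, 0 after primed culture and 0.08 in R1 ESCs-primed. It was detected in the 3 libraries with high naive markers and had no more than 1 read in each of the other 4. The broad carrier Slc6a14 was highest in 5C-Oct4GFP+ at 9.28 TPM and without reads in both primed libraries. Slc6a15, which takes up proline and branched-chain amino acids, was highest in the primed libraries at 16.2 and 11.5 TPM and lay between 2.42 and 7.69 TPM elsewhere. Slc6a9 (GLYT1), the glycine carrier, was lowest in mES-Oct4GFP+ (3.73 TPM) and highest in 5C-Oct4GFP- (17.3 TPM), and shares sequence with Ccdc24.

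Among the uniporters of the Slc43 family, Slc43a1 (LAT3) had 32.1 TPM in mES-Oct4GFP+ beside 5.52 in mES-Oct4GFP-, 3.98 TPM in 5C-Oct4GFP+ beside 13.7 in 5C-Oct4GFP-, 4.61 after naive culture, 16.8 after primed culture and 14.2 in R1 ESCs-primed. Slc43a2 (LAT4) lay between 6.17 and 27.4 TPM with mES-Oct4GFP- highest, and Slc43a3, which is known to carry purine nucleobases instead, had 13.5 TPM in mES-Oct4GFP+ beside 10.1 in mES-Oct4GFP-, 2.86 TPM in 5C-Oct4GFP+ beside 20.3 in 5C-Oct4GFP-, 3.12 after naive culture, 0.50 after primed culture and 0.62 in R1 ESCs-primed. Slc43a3 was thus near the detection limit in both primed libraries, with 2 and 6 reads. Of the proton-coupled Slc36 family, Slc36a1 lay between 3.84 and 9.22 TPM. Slc36a4, which binds proline and tryptophan, was highest in the Oct4GFP- libraries, at 9.96 (mES medium) and 6.49 TPM (5C medium), and at 3.41 and 4.92 in the primed libraries and at most 0.64 TPM in the 3 libraries with high naive markers. The remaining 27 members below 5 TPM included 18 that stayed below 1 TPM in every library, Slc3a1 among them, and Slc7a12 without a read in any.

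Among the promoters of these genes, the element that ATF4 and C/EBP proteins are known to bind was looked for as TGATGNAA on both strands, in windows from 250 bases before to 50 bases after the RefSeq starts (GRCm38.p6). Starts were listed for 43 of the 61 genes. The element was present for 4 of them (9.3%), Slc7a11, Slc7a7, Slc1a4 and Slc6a21, and for 1219 of 27025 genes in all (4.51%). The Slc7a11 window is shown because it held the element in both orientations, 66 and 47 bases before the start, and the Slc7a7 window because Slc7a7 was the light chain that differed most between naive and primed cells. Capitals mark the matches, and each run ends at the last base before the start.
Slc7a11 promoter, chr3:50443614-50443863, minus strand: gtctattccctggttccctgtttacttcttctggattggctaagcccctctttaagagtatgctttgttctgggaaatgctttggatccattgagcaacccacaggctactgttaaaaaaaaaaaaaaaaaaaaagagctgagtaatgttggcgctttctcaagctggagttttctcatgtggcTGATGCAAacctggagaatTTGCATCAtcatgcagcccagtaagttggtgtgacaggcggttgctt
Slc7a7 promoter, chr14:54417945-54418194, minus strand: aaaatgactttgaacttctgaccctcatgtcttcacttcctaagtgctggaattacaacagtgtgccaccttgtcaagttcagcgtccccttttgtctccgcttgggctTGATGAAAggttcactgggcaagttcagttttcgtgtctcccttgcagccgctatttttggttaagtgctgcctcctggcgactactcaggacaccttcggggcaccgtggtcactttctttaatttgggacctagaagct
The match in the Slc7a7 run lies 141 bases before the start, and a further one reaches across the start itself. A match of letters is a description and does not show that a factor was bound. The Slc7a11 and Slc7a7 levels did not run together: Slc7a11 was highest in 5C-Oct4GFP- and Slc7a7 in R1 ESCs-primed.

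For each pair of libraries, a gene was counted as higher or lower when its log2(TPM + 1) differed by at least 1 (2-fold), provided that 1 of the libraries had at least 1 TPM. Without replicates no test could be made, so each count is given beside the percentage of all genes past the same 2-fold limit. The comparisons share libraries (5C-Oct4GFP+ enters 4 of the 8), so they are not independent of each other. For 8 of the named genes the mean effective length varied by over 1.5 times between libraries, which the counting intervals do not cover. They were Slc1a1, Slc1a3, Slc6a9, Slc7a4, Slc7a11, Slc38a3, Slc43a2 and Slc43a3, the last with the largest variation at 3.99 times. Scaling libraries by the median ratio of genes would add 0.15 to every log2 difference of mES-Oct4GFP+ against mES-Oct4GFP-, 0.23 to 5C-Oct4GFP+ against 5C-Oct4GFP-, 0.12 to 5C-Oct4GFP+ (naive) against 5C-Oct4GFP+ and 0.18 to 5C-Oct4GFP+ (naive) against 5C-Oct4GFP+ (primed).

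The first question was how the transporters differed between Oct4GFP+ cells from the 2 media. In 5C-Oct4GFP+ against mES-Oct4GFP+ cells, 9 of 38 transporters with at least 1 TPM in either library were higher, beside 13.7% of all genes, and 10 were lower, beside 13.5% of all genes. The median difference was 0.17 over the transporters and -0.06 over all genes. Slc7a3 was 7.4-fold higher (6.6 to 8.32) and Slc7a7 7.79-fold higher (5.89 to 10.5), and the system A genes Slc38a2 and Slc38a1 were 3.15-fold higher (2.96 to 3.35) and 2.68-fold higher (2.39 to 3.01). Slc38a5 had the largest difference, 5.06 on the log2 scale, from 0.17 to 37.9 TPM, and Slc38a3 differed by 1.71, both on 3 reads or fewer in mES-Oct4GFP+. Slc6a14 and Slc1a3 were 3.85-fold higher (2.56 to 6.01) and 3.02-fold higher (2.05 to 4.82). The mean effective length of Slc1a3 varied between 1510.5 and 3951 bases among libraries, so its TPM ratio depends on that estimate too.

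In the lower group Slc38a4 was 8.03-fold lower (7.27 to 8.88), Slc43a1 8.07-fold lower (6.06 to 10.9) and Slc1a1 8.07-fold lower (5.33 to 12.6). Slc43a3 and Slc6a7 were 4.71-fold lower (3.24 to 6.97) and 4.55-fold lower (3.15 to 6.69), and Slc7a1 and Slc36a1 2.17-fold lower (1.99 to 2.37) and 2.4-fold lower (1.83 to 3.15), of which Slc36a1 was at -0.96 in log2 of FPKM and so inside the limit. The other 3 lower genes, Slc7a9, Slc7a10 and Slc38a8, stayed below 5 TPM in both libraries. Slc3a2, Slc7a5 and Slc1a5 lay just inside the 2-fold limit, at ratios of 1.9, 1.91 and 1.87. Slc7a11 was at 1.42 and 2.31 TPM, with an interval of the ratio that held 1 (0.933 to 3.12), and its log2 difference was 1.05 in CPM (counts scaled to the library total, without the length estimate).

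**Figure D3:**
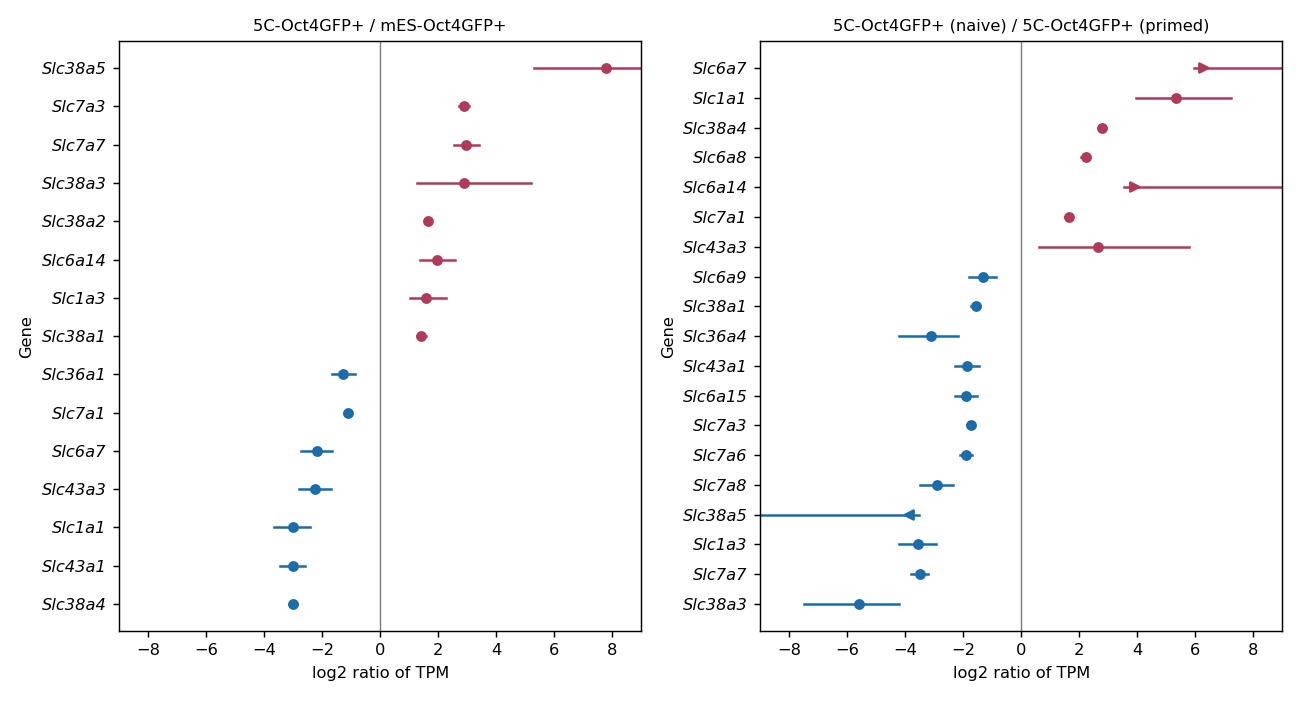
Log2 ratio of TPM for the named transporters past 2-fold in 5C-Oct4GFP+ against mES-Oct4GFP+ (left) and in 5C-Oct4GFP+ (naive) against 5C-Oct4GFP+ (primed) (right); points are ratios, lines are 95% counting intervals cut at the axis ends, and triangles are bounds against a library without reads. Red marks higher and blue lower in the first library. Slc38a4, Slc1a1, Slc6a7, Slc7a1 and Slc43a3 are blue on the left and red on the right. Slc7a3, Slc7a7, Slc38a1, Slc38a3, Slc38a5 and Slc1a3 are red on the left and blue on the right. Slc43a1 is blue and Slc6a14 red in both panels.

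The genes around the transporters were counted in the same way, so the shares of 13.7% and 13.5% of all genes apply to them too. Of 15 genes of the amino acid response, 5 were higher and 1 was lower in 5C-Oct4GFP+. The largest differences were 4.01 for Atf3, a target of ATF4, 2.38 for Chac1, an ATF4 target that degrades glutathione, and -2.35 for asparagine synthetase (Asns). Asns had 789.7 TPM in mES-Oct4GFP+ beside 86.9 in mES-Oct4GFP-, 154 TPM in 5C-Oct4GFP+ beside 108 in 5C-Oct4GFP-, 657 after naive culture, 215 after primed culture and 146 in R1 ESCs-primed. Asns was therefore highest in mES-Oct4GFP+ and 5C-Oct4GFP+ (naive), the libraries in which Slc38a1 was lowest, while Atf4 itself differed by 0.68 and lay between 260.3 and 429 TPM throughout. Of 29 genes that sense amino acids upstream of mTORC1, 2 were higher and 4 lower, with Sesn1, a leucine sensor relative, at -1.50, Bmt2, the S-adenosylmethionine sensor, at -1.36 and the Rag GTPase Rragd at -1.33. Of 21 enzymes compared that make or use these amino acids, 3 were higher and 3 lower. The branched-chain aminotransferases Bcat1 and Bcat2 differed by -2.70 and 2.23, and glutathione synthetase (Gss) by -2.55.

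The same media were compared in the cells that had not switched on the reporter. In 5C-Oct4GFP- against mES-Oct4GFP- cells, 8 of 38 transporters were higher, beside 9.68% of all genes, and 5 were lower, beside 10.1% of all genes. Under median-ratio scaling the counts were 8 higher and 3 lower, beside 9.06% and 10% of all genes. Slc7a5 was 2.54-fold higher (2.32 to 2.79) and Slc7a11 2.66-fold higher (2.33 to 3.05). The glutamine carriers Slc38a5 and Slc38a3 were 2.76-fold higher (2.43 to 3.13) and 3.52-fold higher (2.14 to 6.01), and Slc1a3 and Slc1a4 3.19-fold higher (2.51 to 4.1) and 2.16-fold higher (1.94 to 2.41). Slc6a9 was 3.52-fold higher (2.57 to 4.79) and Slc43a1 2.48-fold higher (1.84 to 3.36). Slc38a4 was 7.33-fold lower (6 to 9.04), Slc7a8 6.16-fold lower (4.15 to 9.45) and Slc43a2 3.01-fold lower (2.54 to 3.58). Slc7a10 and Slc1a6, both below 2 TPM, made up the rest of the lower group. Slc7a3, Slc38a1 and Slc38a2 were within 2-fold, at ratios of 1.88, 1.5 and 1.21, as were Slc3a2 (1.07), Slc1a5 (1.41) and Slc7a1 (1.38).

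**Figure D4:**
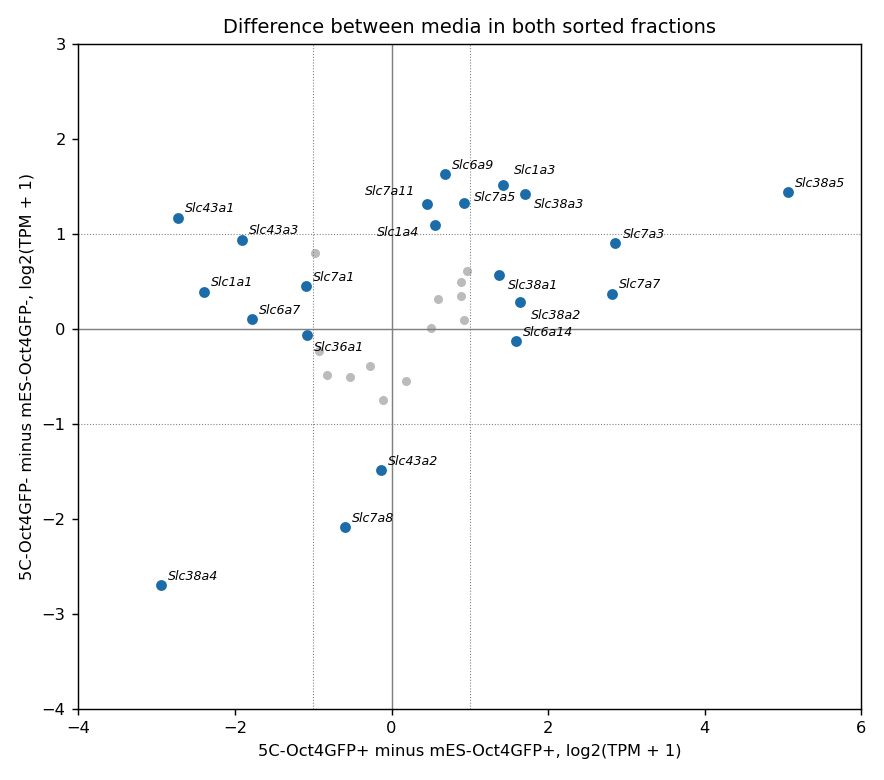
Difference between 5C and mES medium on the log2(TPM + 1) scale in Oct4GFP+ cells (horizontal) and Oct4GFP- cells (vertical) for 34 transporters, 1 point per gene; dotted lines mark 2-fold, and genes past it in either fraction are blue and named. Slc38a5, Slc38a3 and Slc1a3 lie past 2-fold higher on both axes and Slc38a4 lower on both, whereas Slc43a1 lies at -2.73 and 1.17.

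Side by side, Slc38a4 was lower and Slc38a5, Slc38a3 and Slc1a3 were higher with 5C medium in both sorted fractions. Slc43a1 was lower with 5C medium in Oct4GFP+ cells and higher in Oct4GFP- cells. Beside the same 9.68% and 10.1% of all genes, of the response list 1 gene was higher and 3 were lower in 5C-Oct4GFP-, led by Nupr1 at -2.98, Vldlr at -1.37 and Atf3 at -1.22, and Asns differed by 0.31. None of the 29 sensing genes was past 2-fold. Of 22 enzymes 4 were higher and 2 lower, with threonine dehydrogenase (Tdh) at 3.76, from 34.6 to 481 TPM, and arginase Arg1 at -2.22. Summed fibroblast markers were lower in 5C-Oct4GFP- (167.1 against 342.6 TPM, all 5 above 1 TPM in both). Thy1 was higher there (53.29 against 8.73 TPM), whereas Col1a1, Col1a2, Pdgfrb and Postn were lower. The 3 keratinocyte markers summed to 90.83 and 78.65 TPM, with Krt5 at 43.81 and 2.41, Krt14 at 44.83 and 75.35 and Trp63 at 2.19 and 0.89 TPM. The 3 primitive endoderm markers summed to 7.15 and 61.75 TPM. The 3 neural markers (Sox1, Pax6, Tubb3) summed to 107.9 and 31.32 TPM, with Tubb3 at 90.06 and 23.74, Sox1 at 15.46 and 2.38 and Pax6 at 2.36 and 5.2 TPM. Of the pluripotency markers, Nanog was at 119.5 and 17.11 TPM and Pou5f1 at 1534 and 3640 TPM. The part of these cells in the differences was not tested.

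Sorted fractions of 1 culture were compared next. In mES-Oct4GFP+ against mES-Oct4GFP- cells, 11 of 43 transporters were higher, beside 17.9% of all genes, and 13 were lower, beside 28.8% of all genes. In the lower group Slc7a2 was 17.3-fold lower (13.5 to 22.2), Slc36a4 22.6-fold lower (11.3 to 53.1) and the taurine carrier Slc6a6 4.42-fold lower (4.14 to 4.73). Slc38a5 differed by -5.24 on the log2 scale. CD98 light chains made up 4 of the 13, with Slc7a11 6.14-fold lower (3.74 to 11.4), Slc7a7 3.42-fold lower (2.53 to 4.69), Slc7a8 2.69-fold lower (1.97 to 3.73) and Slc7a6 2.28-fold lower (1.96 to 2.66). Slc7a4, Slc43a2 and Slc38a1 were 6.16-fold lower (3.08 to 14), 2.56-fold lower (2.05 to 3.24) and 2.41-fold lower (2.14 to 2.72), and Slc1a2 and Slc6a17, both below 2 TPM, completed the 13. The light chain Slc7a5 went the other way and was 2.03-fold higher (1.84 to 2.24) in mES-Oct4GFP+. In the higher group the glutamate carrier Slc1a1 was 28.5-fold higher (10.9 to 106), Slc43a1 5.82-fold higher (4.43 to 7.74) and Slc38a4 3.93-fold higher (3.61 to 4.28). The proline carrier Slc6a7, without reads in mES-Oct4GFP-, was at least 48.1-fold higher, computed against 3 reads in that library. Slc6a8 and Slc7a1 were 2.61-fold higher (2.36 to 2.89) and 2.45-fold higher (2.22 to 2.7). Slc38a6 was counted as 2.21-fold higher, with its uncertain reads, and 10 transporters were higher without it. Slc7a9 and Slc38a8, both below 5 TPM, were also among the 11. Slc7a3, Slc3a2, Slc38a2 and Slc1a5 were within 2-fold, at log2 differences of -0.85, -0.60, -0.39 and -0.08. Slc1a3 and Slc38a3 were within it at -0.14 and -0.95 but passed it in CPM, at -1.09 and -1.23.

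In 5C-Oct4GFP+ against 5C-Oct4GFP- cells, 5 of 38 transporters were higher, beside 8.45% of all genes, and 10 were lower, beside 22.6% of all genes. The higher genes included Slc38a4 at 3.59-fold higher (2.92 to 4.46), Slc6a8 at 3.14-fold higher (2.89 to 3.42), Slc7a3 at 2.16-fold higher (2.02 to 2.3) and Slc6a7, which differed by 1.58 on the log2 scale. Slc7a2 was 11.2-fold lower (9.14 to 13.9), Slc7a11 10-fold lower (7.83 to 13.2) and Slc36a4 10.1-fold lower (6.34 to 17.1). Slc43a3, Slc6a6 and Slc38a5 were 7.1-fold lower (5.02 to 10.3), 3.01-fold lower (2.89 to 3.13) and 3.15-fold lower (2.8 to 3.56). Slc43a1, Slc7a6 and Slc7a4 were 3.43-fold lower (2.53 to 4.72), 2.98-fold lower (2.53 to 3.53) and 3.47-fold lower (2.12 to 5.85). Slc6a9 was 2.63-fold lower (2.06 to 3.4), but its log2 difference of -1.27 became -0.93 in CPM. Slc38a2 lay at the limit with a log2 difference of 0.98 and passed it under median-ratio scaling (1.2), in FPKM (1.07) and in CPM (1.08). Slc7a7, at 0.79, reached 1.01 under median-ratio scaling, and Slc7a5, Slc38a1, Slc1a5, Slc3a2 and Slc7a1 were within it.

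Slc7a2, Slc7a11, Slc36a4, Slc6a6, Slc38a5, Slc7a6 and Slc7a4 were thus lower, and Slc38a4, Slc6a8 and Slc6a7 higher, in the Oct4GFP+ than in the Oct4GFP- fraction in either medium. Slc43a1 was higher in the Oct4GFP+ fraction with mES medium and lower in it with 5C medium. Both Oct4GFP- libraries also carried markers of other cells. The 5 fibroblast markers were all above 1 TPM there, whereas 3 and 2 of them were in mES-Oct4GFP+ and 5C-Oct4GFP+. The 3 keratinocyte markers summed to 78.65 and 90.83 TPM against 0.26 and 3.83 in the Oct4GFP+ libraries, with Krt5 and Krt14 without reads in mES-Oct4GFP+. The part of such cells in the transporter differences was not tested. Nor was that of retained starting fibroblasts, for which no library was analysed here.

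The lists around the transporters are read beside the same shares of all genes, 17.9% higher and 28.8% lower with mES medium and 8.45% and 22.6% with 5C medium. Here 3 response genes were higher and 5 lower in mES-Oct4GFP+ than in mES-Oct4GFP-, led by Atf3 (-6.65), Nupr1 (-5.00) and Cebpb (-3.35), whereas Asns was higher by 3.17. For 5C-Oct4GFP+ against 5C-Oct4GFP- these counts were 3 higher and 2 lower, led by Chac1 (1.96), Trib3 (1.47) and Atf3 (-1.42). Of the sensing genes 3 were higher and 2 lower with mES medium, and 2 higher and 1 lower with 5C medium, where the arginine sensor Castor1 differed by 1.82. Of 22 enzymes 6 were higher and 2 lower with mES medium, and 5 higher and 2 lower with 5C medium. Arg1, which breaks down arginine, was the lowest in both, at -4.95 and -3.00, beside the Slc7a2 differences of -3.73 and -3.09. Gclc, an enzyme of glutathione synthesis, differed by 0.70 and 0.17, and glutamine synthetase (Glul) by -0.55 and -0.09.

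The next comparisons followed 5C-Oct4GFP+ cells into naive and primed culture. In 5C-Oct4GFP+ (naive) against 5C-Oct4GFP+ cells, 4 of 36 transporters were higher, beside 10% of all genes, and 11 were lower, beside 17.5% of all genes. The median difference was -0.46 over the transporters and -0.10 over all genes. The higher genes were Slc38a4 at 6.41-fold higher (5.81 to 7.09), Slc6a7 at 5.15-fold higher (3.65 to 7.42), Slc1a1 at 4.78-fold higher (3.13 to 7.51) and Slc7a1 at 2.31-fold higher (2.14 to 2.51). Slc38a5, without reads after naive culture, was at least 86.1-fold lower, computed against 3 reads. Slc7a3 was 5.47-fold lower (5.01 to 5.98) and Slc7a7 5.42-fold lower (4.42 to 6.7), and Slc38a2 and Slc38a1 were 2.61-fold lower (2.48 to 2.74) and 2.68-fold lower (2.43 to 2.97). Slc1a3 and Slc6a14 were 8.94-fold lower (5.85 to 14.3) and 4.34-fold lower (2.99 to 6.46). Slc38a3 was 11.3-fold lower (4.17 to 42.8), Slc7a4 differed by -1.27 on the log2 scale, and Slc7a2 was 4-fold lower (2.52 to 6.38). In FPKM the log2 differences of Slc7a2 and Slc7a4 were -0.84 and -0.87. Slc36a1, at 0.98, passed the limit under median-ratio scaling (1.09) and in CPM (1.19). Slc3a2, Slc7a5, Slc1a5 and Slc7a11 were within 2-fold. At the end the levels in 5C-Oct4GFP+ (naive) lay beside those in mES-Oct4GFP+ for Slc7a3 (59.4 and 43.9 TPM), Slc7a1 (53.9 and 50.5 TPM), Slc38a4 (155 and 194 TPM), Slc38a1 (15.2 in both) and Slc6a7 (11.3 and 10.01 TPM). They did not for Slc43a1 (4.61 and 32.1 TPM), Slc43a3 (3.12 and 13.5 TPM), Slc38a6 (359 and 703 TPM), Slc1a3 (1.71 and 5.06 TPM) or Slc7a2 (0.69 and 3.05 TPM). This pair of libraries was not among the comparisons counted, so these genes are examples without a share of all genes.

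In 5C-Oct4GFP+ (primed) against 5C-Oct4GFP+ cells, 8 of 37 transporters were higher, beside 13.7% of all genes, and 11 were lower, beside 16.1% of all genes. Light chains and neutral amino acid carriers were among the higher genes. Slc7a8 was 5.13-fold higher (3.8 to 7.06), Slc7a6 4.92-fold higher (4.24 to 5.72) and Slc7a7 2.09-fold higher (1.92 to 2.29). Slc43a1, Slc38a3 and Slc6a15 were 4.22-fold higher (3.18 to 5.69), 4.28-fold higher (3.2 to 5.82) and 2.85-fold higher (2.3 to 3.56), and Slc36a4 was 5.33-fold higher (3.28 to 9.09). Slc6a17, a carrier of neurons at 1.32 TPM, completed the group. Carriers of the Slc6 family were among the 11 lower genes. Slc6a8 was 7.24-fold lower (6.56 to 8.01) and Slc6a6 2.16-fold lower (2.03 to 2.29), and Slc6a14 and Slc6a7, without reads after primed culture, were at least 65.4-fold lower and at least 15.1-fold lower, each computed against 3 reads. Slc38a5 was 5.89-fold lower (4.5 to 7.81), Slc38a2 2.49-fold lower (2.38 to 2.6) and Slc7a2 3.45-fold lower (2.38 to 5.17). Slc1a1 was 8.44-fold lower (2.95 to 33.1), and Slc7a4 and Slc43a3 differed by -1.47 and -1.36 on the log2 scale. Slc1a1 and Slc7a2 came inside the limit in FPKM, at -0.73 and -0.80, and Slc7a7 under median-ratio scaling, at 0.99. Slc7a3, Slc7a1, Slc3a2, Slc7a5, Slc1a5, Slc38a1 and Slc7a11 were within 2-fold.

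Slc38a2, Slc38a5, Slc6a14, Slc7a2 and Slc7a4 were lower than in 5C-Oct4GFP+ after either culture. Both comparisons use the same 5C-Oct4GFP+ library, so a chance deviation in it would appear in both. The other lists stand beside the same 10% and 17.5% of all genes after naive culture and 13.7% and 16.1% after primed culture. Of the response genes, 1 was higher and 7 were lower after naive culture, led by Atf3 (-3.69), Cebpb (-3.01) and Chac1 (-2.28), and 1 was higher and 3 were lower after primed culture, led by Nupr1 (-3.83), Vldlr (2.02) and Atf3 (-1.30). Asns was higher by 2.09 after naive culture and differed by 0.48 after primed culture. Of 29 sensing genes 2 were higher and 3 lower after naive culture, and 3 higher and 2 lower after primed culture. Of 21 enzymes these counts were 2 and 6 after naive culture, and 4 and 3 after primed culture.

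The cultures were then compared with each other. In 5C-Oct4GFP+ (naive) against 5C-Oct4GFP+ (primed) cells, 7 of 37 transporters were higher, beside 16.7% of all genes, 12 were lower, beside 22.2% of all genes, and 18 were in neither group. The median difference was -0.43 over the transporters and -0.14 over all genes. On the naive side stood Slc38a4 at 6.81-fold higher (6.17 to 7.53), Slc6a8 at 4.63-fold higher (4.17 to 5.15), Slc7a1 at 3.11-fold higher (2.86 to 3.39) and Slc1a1 at 40.3-fold higher (15.3 to 151). Slc6a7 was at least 77.7-fold higher and Slc6a14 at least 15.1-fold higher, both computed against 3 reads in the primed library, and Slc43a3 differed by 1.46 on the log2 scale.

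On the primed side the light chains Slc7a7, Slc7a8 and Slc7a6 were 11.3-fold lower (9.35 to 13.9), 7.48-fold lower (5.1 to 11.4) and 3.78-fold lower (3.27 to 4.38) in the naive cells. The arginine and lysine carrier Slc7a3 was 3.37-fold lower (3.08 to 3.69). The glutamine carriers Slc38a3 and Slc38a1 were 48.3-fold lower (18.6 to 179) and 2.99-fold lower (2.71 to 3.3), and Slc38a5, without reads in the naive cells, was at least 14.6-fold lower. Slc1a3 was 11.7-fold lower (7.72 to 18.7), Slc6a15 3.75-fold lower (2.91 to 4.9), Slc43a1 3.65-fold lower (2.74 to 4.93) and Slc36a4 8.74-fold lower (4.57 to 18.8). Slc6a9 was 2.51-fold lower (1.82 to 3.51), but its log2 difference of -1.14 became -0.62 in CPM, -0.97 in FPKM and -0.99 under median-ratio scaling. Slc7a5 lay just inside the limit at -0.96, Slc3a2 at -0.74 and Slc7a11 at -0.48, the last at -1.37 in CPM. Slc1a5 and Slc38a2 had ratios of 0.947 (0.872 to 1.03) and 0.953 (0.901 to 1.01).

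Tdh had the largest difference of the 21 enzymes compared, of which 3 were higher and 6 lower in the naive cells, beside 16.7% and 22.2% of all genes for this and the other lists. It had 640.3 TPM in mES-Oct4GFP+ beside 34.6 in mES-Oct4GFP-, 700.3 TPM in 5C-Oct4GFP+ beside 481 in 5C-Oct4GFP-, 725 after naive culture, 4.18 after primed culture and 18.4 in R1 ESCs-primed, a log2 difference of 7.13 between naive and primed cells, while Slc1a4 and Slc1a5, which accept threonine, were within 2-fold. Gss differed by 2.78. Of the response genes 2 were higher and 5 lower in the naive cells, with Cebpb at -3.37, Atf3 at -2.38 and Nupr1 at 2.26. Asns differed by 1.61 and Atf4 by -0.50. Of the 29 sensing genes 1 was higher and 2 were lower, with Castor2 at -2.85, Rragb at -1.73 and Castor1 at 1.13. The markers listed for primitive endoderm (Gata4, Gata6, Sox17) summed to 93.39 TPM in 5C-Oct4GFP+ (primed), 60.92 in R1 ESCs-primed and 1.93 in 5C-Oct4GFP+ (naive), and fibroblast markers to 47.06, 113.5 and 6.07 TPM. In 5C-Oct4GFP+ (primed) Sox17 held 60.37, Gata6 28.83 and Gata4 4.19 TPM, beside the primed markers Foxa2 at 82.9 and T at 155.31 TPM. Which kind of endoderm these levels came from was not tested. The part of feeder or endoderm RNA was not tested.

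Finally, the primed cells derived from 5C-Oct4GFP+ were compared with primed cells from the R1 line. In 5C-Oct4GFP+ (primed) against R1 ESCs-primed, 0 of 32 transporters were higher, beside 2.3% of all genes, and 1 was lower, beside 5.09% of all genes. The lower gene was Slc38a4, at 22.8 against 54.1 TPM, which made it 2.37-fold lower (2.11 to 2.67). Slc38a6 lay just inside the limit at 0.98 and passed it under median-ratio scaling, which gave 1 higher and 1 lower. Slc7a2 (0.80 against 2.42 TPM) was at -0.93 and passed it in CPM, at -1.24. Slc38a5 (6.44 against 2.92 TPM) was at 0.92 and passed it with a pseudocount of 0.1, at 1.11. The ratios of Slc3a2, Slc7a5, Slc38a2, Slc1a5 and Slc7a3 lay between 1.06 and 1.22, and those of Slc7a1, Slc38a1 and Slc7a11 were 1.31, 0.897 and 0.698. With 1 library each, this does not show that the transporters were alike in these lines. Among the other lists, beside the same 2.3% and 5.09% of all genes, 2 of 15 response genes were higher, Trib3 (1.34) and Chac1 (1.20), no sensing gene passed 2-fold, and 2 of 22 enzymes were lower, Arg1 (-3.18) and Tdh (-1.91).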

How the data were processed

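RNA from 7 mouse cell samples was extracted with TRIzol, made into TruSeq v2 libraries and sequenced on a MiSeq. Per the labels and the study's methods, the authors aligned reads with Bowtie to a synthetic transcriptome (mm10) and quantified them with RSEM (versions not given in the sources used here). The deposited tables hold, for each Ensembl gene, the authors' estimated counts (RSEM expected counts, not normalized), TPM (per effective length, scaled to 1 sum in every library) and FPKM (per length and mapped fragments). RSEM splits reads between genes of shared sequence, so such levels are estimates.

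From these, differences of log2(TPM + 1) were taken between 8 pairs of libraries, and genes past 2-fold were counted if 1 of both libraries had at least 1 TPM. No test across samples was possible with 1 library per group. Ratios of TPM have exact Clopper-Pearson 95% intervals from estimated counts rounded to whole numbers. They were given where both libraries had at least 4 counts, and against a library without reads a bound was computed with 3 counts. Depth was 6108252 to 11496615 counts per library, and intervals cover counting error only.

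Members were matched by symbol through GENCODE M21 (GRCm38). Genes are named with their levels where they reached 5 TPM in at least 1 library, together with Slc3a1. In a comparison, up to 10 of these past 2-fold in each direction are named by size, with any others where a count is completed, and always Slc3a2, Slc7a5, Slc7a11, Slc7a3, Slc7a1, Slc1a5, Slc38a1 and Slc38a2. Of other lists Atf4, Asns, Glul, Gclc, Tdh and genes among the 3 largest differences are named. Values of 1 member and 1 list gene that these rules choose are not reported here, though counts include both. The members and all lists were chosen with earlier results of these data known.

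Alternatives were a pseudocount of 0.1, a minimum of 5 TPM, no minimum, median-ratio scaling, FPKM and a 1.5-fold limit. CPM (estimated counts scaled to the library total), leaving out Slc38a6, and leaving out members whose effective length varied by over 1.5 times were added after the data had been seen. Words of 31 bases shared between transcripts were counted in GENCODE M21. Scripts were tested on simulated data. The work used scipy 1.17.1, pandas 2.3.3 and numpy 2.4.6 under Python 3.11.15, with matplotlib 3.10.9 for plots.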

Additional observations from a re-analysis of the deposited data

Results flagged for a closer look

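At the main limit, Slc43a1 was the 1 transporter that passed 2-fold in opposite directions under the same contrast. How many of all genes did so was not counted, so whether this is more or less than for genes at large is not known. On the log2(TPM + 1) scale 5C-Oct4GFP+ minus mES-Oct4GFP+ was -2.73, whereas 5C-Oct4GFP- minus mES-Oct4GFP- was 1.17. Seen the other way, Oct4GFP+ minus Oct4GFP- was 2.34 with mES medium and -1.56 with 5C medium. Both views rest on the same 4 libraries, with 1 library per group, and the difference between the contrasts was not tested. The effective length of Slc43a1 stayed within 1.5 times between libraries. Other genes came close to such a reversal. Slc43a3, lower with 5C medium in Oct4GFP+ cells, was at 0.94 in Oct4GFP- cells and at 1.0 with a pseudocount of 0.1. Slc7a7, lower in mES-Oct4GFP+ than in mES-Oct4GFP-, was at 0.79 in 5C-Oct4GFP+ against 5C-Oct4GFP- and at 1.01 under median-ratio scaling.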

How the results depend on the processing

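No paired analysis was possible because each group had 1 library and the labels carry no replicate numbers. No log2 difference of a named gene changed direction past 2-fold under any alternative run. The share of all genes past the limit under the same setting is given in brackets after each count. For 5C-Oct4GFP+ against mES-Oct4GFP+, 16 of 38 members were higher at 1.5-fold (21.9%), and 5 of 27 members of steady effective length were lower (12.2%). For 5C-Oct4GFP- against mES-Oct4GFP-, 4 of 27 members of steady length were higher (8.55%) and 3 lower (8.8%), and 3 were lower of 31 with a minimum of 5 TPM (9.44%), of 38 with median-ratio scaling (10%) and of 33 in FPKM (7.99%). For mES-Oct4GFP+ against mES-Oct4GFP-, 8 of 29 members of steady length were lower (26%). For 5C-Oct4GFP+ against 5C-Oct4GFP-, 9 of 38 were higher (14.7%) and 16 lower (35.5%) at 1.5-fold, and 6 of 28 of steady length were lower (19.3%). For 5C-Oct4GFP+ (naive) against 5C-Oct4GFP+, 7 of 36 were higher with a pseudocount of 0.1 (12.8%), and 8 higher (18.3%) and 17 lower (28.6%) at 1.5-fold. For 5C-Oct4GFP+ (primed) against 5C-Oct4GFP+, 6 of 27 were lower with a minimum of 5 TPM (14.6%). For 5C-Oct4GFP+ (naive) against 5C-Oct4GFP+ (primed), 9 of 37 were higher (19.4%) and 14 lower (25.8%) with a pseudocount of 0.1. Median-ratio scaling gave 9 of 37 higher (19.3%) and 11 lower (19.4%), and CPM 9 of 38 higher (16.5%) and 14 lower (22.3%). Of 28 members of steady length, 5 were higher (15.7%) and 9 lower (20%). For 5C-Oct4GFP+ (primed) against R1 ESCs-primed, 1 member was higher with a pseudocount of 0.1 (4.17%), median-ratio scaling (2.44%), FPKM (1.51%) or CPM (1.59%) and 3 at 1.5-fold (6.73%), whereas 2 were lower with a pseudocount of 0.1 (8.47%) or at 1.5-fold (11.1%) and 3 in CPM (4.52%), of 29 to 35 members. The limits on steady length and the use of CPM were chosen after seeing the data, and fewer members enter under a minimum of 5 TPM or steady length by construction. Without replicates, the spread between cultures is unknown, and members with few reads can pass 2-fold by counting error alone.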
